A study of Mus musculus with 30 samples.

Results

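The genes described here were 42 mouse genes of complement, of blood coagulation and of the inhibitors that restrain both. They were given as a list of gene symbols and found by symbol in the deposited count table, where they were 42 of 57180 genes. The list was drawn up by function, but with earlier results of these data known. By role there were 7 recognition molecules and early proteases of complement (Mbl1, Mbl2, C1ra, Masp1, Masp2, C2 and C4b) and 2 genes at the C3 step (C3 and Cfb). A further 6 belonged to the terminal pathway (Hc, C6, C8a, C8b, C8g and C9) and 4 were complement inhibitors (Serping1, C4bp, Cfi and Vtn). The coagulation factors and contact proteins numbered 11 (F2, F5, F7, F9, F10, F11, F12, F13b, Klkb1, Kng1 and Kng2) and the fibrinogen chains 3 (Fga, Fgb and Fgg). The list ended with 5 anticoagulants (Serpinc1, Serpind1, Serpina10, Proc and Pros1) and 4 genes of fibrinolysis and its control (Plg, Serpinf2, Cpb2 and Hrg).

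Liver RNA was sequenced in 2 studies of UB-NPs, a preparation that the labels give only by this name, with 3 groups each and 5 libraries a group. In the prevention study, which lasted 10 weeks, NC mice ate a standard diet and received water, MC mice ate a high-fat diet and received water, and UB mice ate a high-fat diet and received UB-NPs at 60 mg/kg/day. In the treatment study, NFD mice ate a standard diet with water for 18 weeks. The other mice of that study were made obese by 10 weeks of high-fat diet and then ate it for a further 8 weeks, with water in HFD and with UB-NPs at 60 mg/kg/day in Uro. The design text gives 10 mice a group and daily gavage in the prevention study, and the labels give no strain, sex or age. The labels do not say that a library is 1 mouse, so p-values here measure the spread between libraries.

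Most of these proteins are made by hepatocytes and secreted into the blood. Complement starts when recognition molecules such as the mannose-binding lectins, or an antibody, bring proteases to a surface, where they cleave C4 and C2 and then C3. The terminal components follow and build a pore in the target membrane. Coagulation is a chain of proteases that ends with thrombin, which turns fibrinogen into fibrin, while antithrombin and protein C hold it back and plasmin dissolves the clot. Several of the genes, the fibrinogen chains among them, are known as acute phase genes of the liver.

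Total counts were 17.0 to 24.3 M per library. Transcripts of mitochondrial genes took 61.5 to 73.4% of them in NC, 38.6 to 69.1% in MC and 41.8 to 52.0% in UB. The treatment study had 56.2 to 81.0% in NFD, 59.1 to 82.3% in HFD and 14.1 to 21.6% in Uro. That left 3.14 to 19.7 M counts for all other genes. The tissue label was checked with 9 hepatocyte markers, all detected in each group, whose summed level had medians between 17821 CPM in UB and 40042 CPM in Uro. CPM are TMM-scaled counts relative to a fixed library total, which sets libraries so that most genes do not differ. In bulk tissue, fewer cells of a type and less RNA per cell cannot be told apart.

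The 42 genes together took little of the RNA and differed between groups as a sum. Their summed level was 8708 to 14472 CPM in NC, 9387 to 15366 in MC and 8076 to 12065 in UB. In the treatment study it was 7563 to 13849 CPM in NFD, 5669 to 10501 in HFD and 12960 to 15760 in Uro, so the Uro libraries lay above the HFD libraries without overlap. As a share of the counts outside mitochondrial genes, a scale on which no library adjustment enters, NC had a mean of 2.54 ± 0.49%, MC of 2.41 ± 0.251% and UB of 2.49 ± 0.472% (SD, n = 5 each). In the treatment study NFD had 2.47 ± 0.465%, HFD 2.22 ± 0.322% and Uro 2.88 ± 0.113%. On that scale too every Uro library, at 2.74% or more, was above every HFD library, at 2.67% or less. The mitochondrial share of a library and UB-NPs cannot be told apart between Uro and HFD, because the shares do not overlap.

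**Figure D1:**
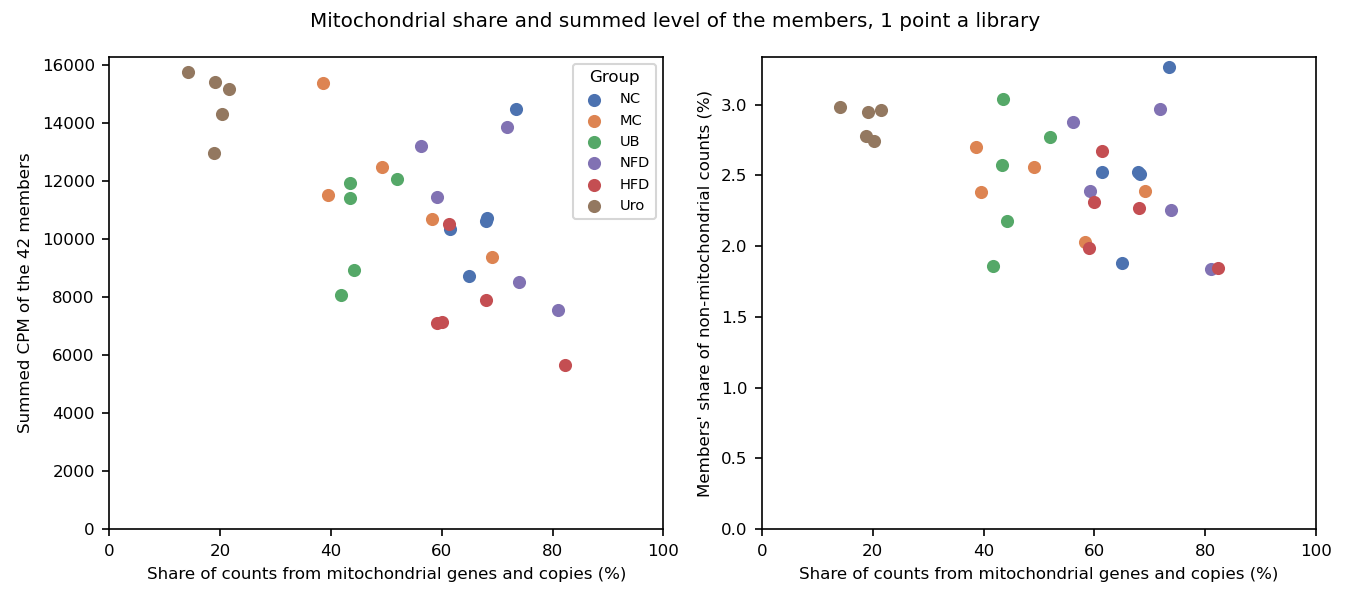
Share of counts from mitochondrial genes and their nuclear copies in percent (horizontal axes) against the summed CPM of the 42 genes (left) and their percent of the counts outside mitochondrial genes (right), 1 point per library, coloured by group. Uro libraries have the lowest mitochondrial shares, 14.1 to 21.6%, and the highest median sum, 15155 CPM.

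Per transcript length the list spanned a wide range of levels. In TPM, the authors' length-scaled unit, the mean over 30 libraries ran from 685 for Vtn through 522 for Serpinc1 and 444 for Kng1 down to 6.09 for Pros1 and 3.22 for F11. Cfb at 382, C4b at 309 and C3 at 235 TPM came next after the top 3. All 42 genes passed the filter on low counts in both studies. The lowest expected count of any member in any library was 59, for F7, and the next lowest gene was F11 at 71. Of the 42 genes 25 overlap a gene on the opposite strand, C2 and Cfb overlap the read-through gene Gm20547 and Klkb1 overlaps Gm45753. C1ra, C4b, Kng1 and Kng2 have near copies. How such reads were assigned is not given in the sources used here, so these levels are uncertain.

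**Figure D2:**
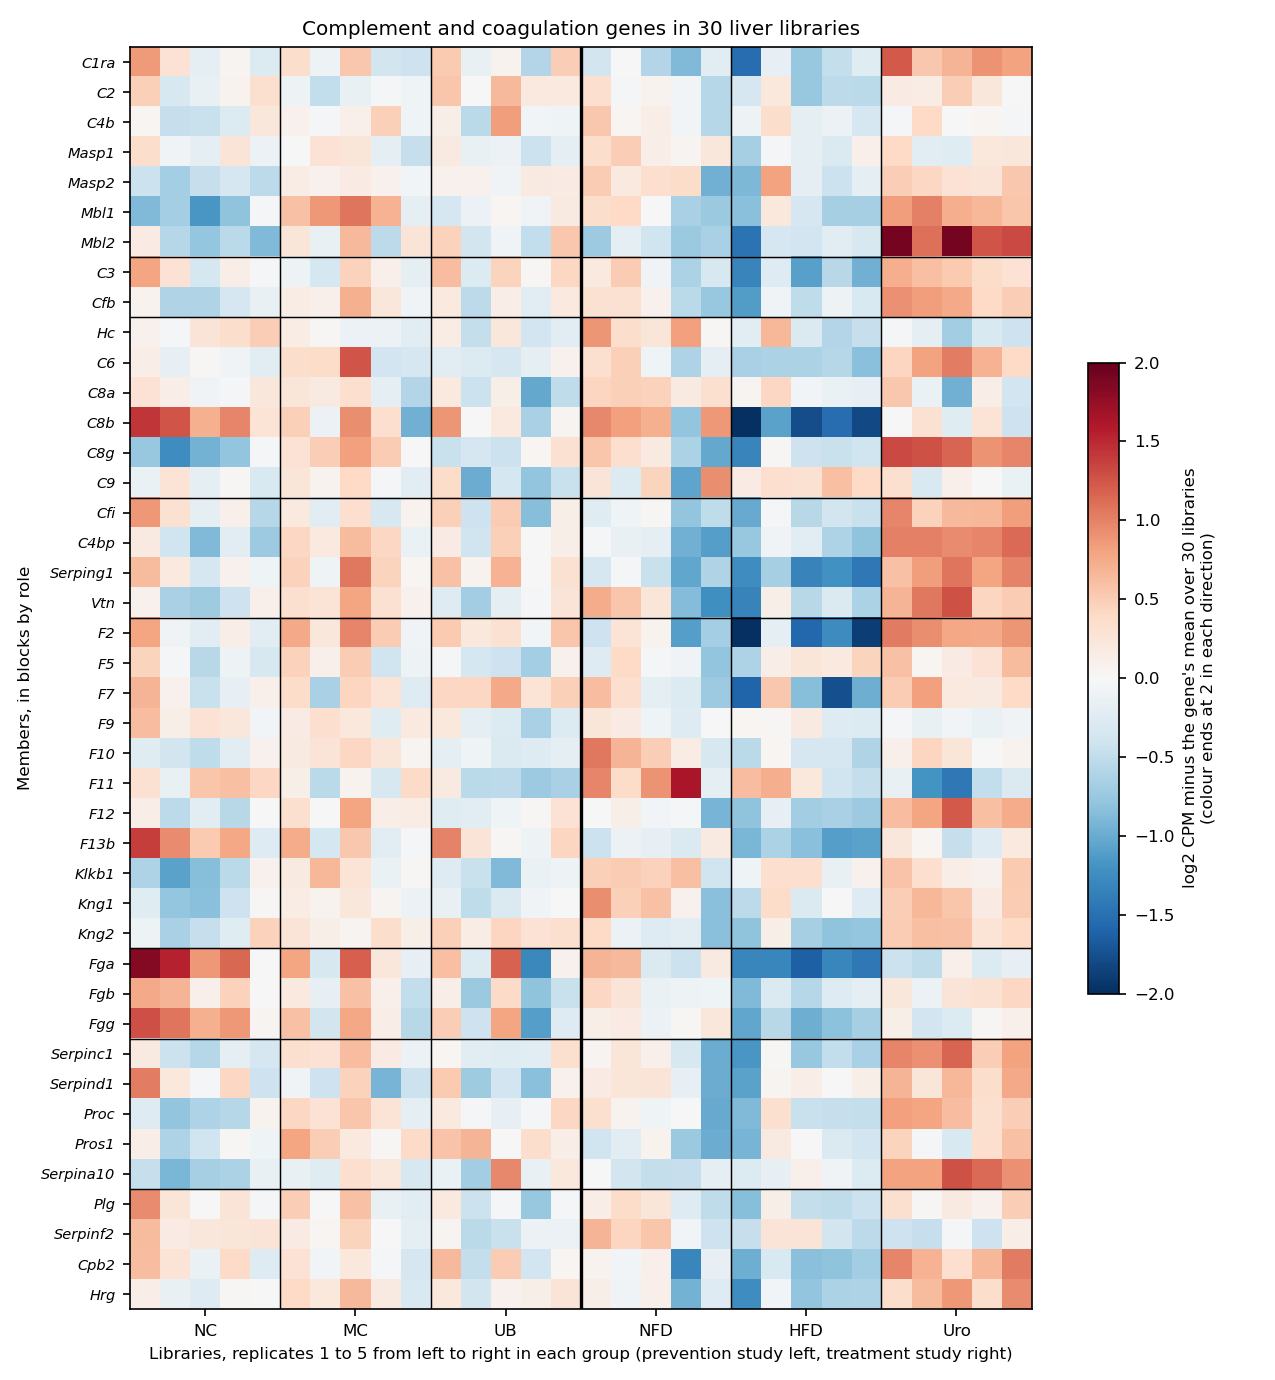
Level of each of the 42 genes in each of the 30 libraries, as log2 CPM minus the gene's mean over all libraries, with genes grouped by role and libraries by group. Most rows are high in the 5 Uro libraries and low in the HFD libraries, where C8b and Fga have some of the lowest values.

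The comparison of MC with NC addressed the effect of the high-fat diet over 10 weeks. In MC 7 of the 42 genes rose and 0 fell at an edgeR quasi-likelihood, Benjamini-Hochberg adjusted p under 0.05. Of the 13498 genes tested 6.65% were called higher and 5.53% lower. The median log2 fold change was 0.25 over the list and 0.03 over all genes. At an unadjusted p under 0.05, 15 members were higher and 1 lower, but the share of all genes at that threshold was not computed. DESeq2 called 13 members higher and 0 lower, beside 2109 of all 13491 genes, 1089 of them higher. By role the genes that rose were 2 of 7 recognition and early protease genes, 1 of 6 terminal genes, 1 of 4 complement inhibitors, 2 of 11 coagulation factors and 1 of 5 anticoagulants.

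Among the recognition genes the largest rise was that of Mbl1, which encodes mannose-binding lectin A (ENSMUSG00000037780, GRCm39, chromosome 14, 40873400 to 40899779). Its level was 41.9, 48.3, 34.5, 44.2 and 75.8 CPM in the NC libraries and 116, 142, 163, 126 and 68.9 CPM in the MC libraries. The first 4 MC libraries were above all NC libraries, while MC replicate 5 lay below NC replicate 5. The log2 fold change was 1.33 ± 0.22 (approximate SE, n = 5 each, adjusted p by edgeR = 0.000569). Masp2, the protease that cleaves C4 and C2 when lectins bind, had 60.9, 50.9, 59.7, 64.6 and 56.8 CPM in NC and 90.8, 87.1, 91.7, 87.1 and 79.02 CPM in MC. All MC libraries were above all NC libraries, by a log2 fold change of 0.57 ± 0.14 (adjusted p by edgeR = 0.00911). The other 5 genes of this role were not called, with log2 fold changes from -0.27 for C2 to 0.62 for Mbl2.

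In the terminal pathway C8g, the gamma chain of C8, had 83.2, 59.6, 73.4, 81.96 and 138 CPM in NC and 173, 199, 251, 202 and 141 CPM in MC. The groups did not overlap, though NC replicate 5 came close to MC replicate 5, and the log2 fold change was 1.14 ± 0.22 (adjusted p by edgeR = 0.00185). Masp2 and C8g were the only members with every MC library above every NC library, against 4.3% of all genes tested. The other chains of C8, C8a and C8b, had log2 fold changes of -0.08 and -0.73 and were not called. C4bp, whose product binds C4b and helps to inactivate it, had 104, 69.7, 49.9, 79.4 and 55.9 CPM in NC and 123, 106, 143, 123 and 83.9 CPM in MC. The groups overlapped, since NC replicate 1 was above MC replicate 5, and the log2 fold change was 0.69 ± 0.20 (adjusted p by edgeR = 0.0283).

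Among the clotting genes Klkb1, the precursor of plasma kallikrein, had 118, 85.7, 99.6, 124 and 191 CPM in NC and 204, 286, 217, 165 and 183 CPM in MC. NC replicate 5 stood above MC replicates 4 and 5 and the other NC libraries below all of MC. Proc, the precursor of the anticoagulant protein C, had 223, 155, 175, 181 and 280.05 CPM in NC and 358, 327, 392, 324 and 234 CPM in MC. Here too NC replicate 5 was the highest of its group, and MC replicate 5, the lowest of its own, lay below it. F10, the factor X that makes thrombin, had 156, 143, 129, 158 and 196 CPM in NC and 208, 219.5, 245, 217 and 192 CPM in MC, with the same pair of libraries crossing. The log2 fold changes were 0.77, 0.69 and 0.47 (approximate SE 0.21, 0.19 and 0.15; adjusted p by edgeR = 0.0201, 0.0204 and 0.0438). The 3 fibrinogen chains had negative values, -0.74 for Fga, -0.65 for Fgg and -0.34 for Fgb, and none was called.

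MC replicate 5 had the highest mitochondrial share of MC, 69.1%, and NC replicate 5 the lowest of NC, 61.5%. With that share as a covariate 0 members were called, and 389 of all genes instead of 1645, with Mbl1 at 0.81 on the log2 scale (adjusted p by edgeR = 0.0658). With the counts outside mitochondrial genes as library size and no TMM, an alternative on which the median of all genes was -0.14, Mbl1 and C8g kept their call and C8b was called lower. Of all 13540 genes 1710 were then called, 441 of them higher. In 1 fit of all 30 libraries Masp2 (adjusted p by edgeR = 0.0847) and F10 lost their calls. Leaving out NC replicate 1 gave 11 higher members, NC replicate 5 gave 12, NC replicate 2 or 3 gave 3 and MC replicate 3 gave 4. Against 1645 of all genes in the main fit, NC replicates 1, 5, 2 and 3 left out gave 1101, 2315, 923 and 1135. MC replicate 3 left out gave 1051. The calls of C4bp, Klkb1, Proc and F10 each ended without NC replicate 2 or NC replicate 3, at adjusted p by edgeR of 0.0512 to 0.116 over the libraries whose loss ended them. The others were NC replicate 4 and MC replicate 3 for Proc, MC replicates 1, 3 and 4 for C4bp, MC replicate 2 for Klkb1, and NC replicates 1 and 4, MC replicates 1 to 4 and UB replicates 3 to 5 for F10.

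Other complement genes were examined as a list of 33 that excluded the 42, of which 28 could be tested, with 4 higher and 3 lower in MC. Cfd, which encodes factor D and is known as a product of adipocytes, had 0.864 ± 0.951 CPM in NC and 108 ± 61.6 CPM in MC (SD, n = 5 each, adjusted p by edgeR = 0.000422). Adipocyte markers, a list of 5 of which Cfd was the only one tested, summed to 0 to 2.41 CPM in NC and 22.3 to 172 CPM in MC, with Adipoq, Lep and Retn at 0 in all MC libraries. That sum includes Cfd itself, and in MC only Cfd and Plin1 of the list were above 0 in any library. The sum without Cfd was not computed, and the part of adipocytes in the result for Cfd was not tested. Of 9 hepatocyte markers 4 rose and 2 fell, with a summed level of 22050.4 to 39105 CPM in NC and 21558 to 40757 CPM in MC, and their part in the results for the list was not tested. Cd59a, an inhibitor of the complement pore, rose from 32.3 ± 12.9 to 86.1 ± 19.7 CPM (adjusted p by edgeR = 0.000515). Of 22 other coagulation and fibrinolysis genes tested 3 rose and 1 fell, among them Anxa2, a surface receptor for plasminogen, from 7.65 ± 2.97 to 29.4 ± 13.2 CPM (adjusted p by edgeR = 0.000923).

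The comparison of UB with MC addressed UB-NPs given along with the high-fat diet from its start. It shares the MC libraries with MC minus NC, where they enter with the opposite sign. No call was made: 0 of the 42 genes were higher and 0 lower in UB by the edgeR quasi-likelihood test. Of all 13498 genes 0.207% were called higher and 0.4% lower. DESeq2 called 0 members as well, beside 228 of all 13491 genes. At an unadjusted p under 0.05, 1 member was higher and 8 were lower. The share of all genes at that threshold was not computed, so these 2 counts have nothing to be judged against. The median log2 fold change was -0.19 over the list and 0.00 over all genes. The count says that no difference passed the test at this spread, and does not show that the groups were alike.

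The lowest adjusted p was that of Mbl1, with 61.6, 71.6, 79.7, 74.2 and 88.1 CPM in UB beside the MC values given above. All UB libraries were below MC replicates 1 to 4, and MC replicate 5 lay within the UB range. Its log2 fold change was -0.72 ± 0.21 (approximate SE, adjusted p by edgeR = 0.161). The call was made without MC replicate 5 (adjusted p by edgeR = 0.0315) and with a covariate for the mitochondrial share (0.0451). F10 had 162, 173, 151, 154 and 162 CPM in UB, all below the MC libraries, and a log2 fold change of -0.43 ± 0.15 (adjusted p by edgeR = 0.249). It was 1 member with every UB library below every MC library, against 1.51% of all genes, and C2, at 35.5 ± 4.21 CPM in MC and 50.2 ± 9.58 CPM in UB (SD, n = 5 each), was 1 member with every UB library above, against 1.23%. C8g and Klkb1 had log2 fold changes of -0.59 and -0.57 (adjusted p by edgeR = 0.27 and 0.282), and Masp2 one of -0.00, with UB libraries at 86.8, 86.6, 77.9, 92.99 and 91.5 CPM.

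Against NC, which differs from UB in diet as well, UB had 1 member higher and 1 lower by the edgeR test, beside 4.47% and 3.33% of all genes. Masp2 had a log2 fold change of 0.57 ± 0.14 (adjusted p by edgeR = 0.0124), with every UB library above every NC library. F11, the clotting factor XI, fell by 0.79 ± 0.22 on the log2 scale (adjusted p by edgeR = 0.0314), from 12.5 ± 2.37 to 7.24 ± 2.08 CPM (SD, n = 5 each). Without adjustment, 9 members were higher and 9 lower at a p under 0.05, a threshold at which the share of all genes was not computed. The call of F11 ended without NC replicate 1, 3 or 4 or UB replicate 2, 3, 4 or 5, at adjusted p by edgeR of 0.0581 to 0.0935. In 1 fit of all 30 libraries both calls ended, with Masp2 at an adjusted p by edgeR of 0.106, and Serpina10 was called higher. The count of lower members was 4 without UB replicate 1 and 2 without NC replicate 5 or MC replicate 5, and the count of higher members 6 without NC replicate 5 and 2 without MC replicate 5 or UB replicate 2. Of all genes the main fit called 1053, and 1213 were called without UB replicate 1. Without NC replicate 5, MC replicate 5 or UB replicate 2 the counts were 1589, 1237 and 863.

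The comparison of HFD with NFD addressed the longer high-fat diet of the obese mice. In HFD 7 of the 42 genes fell and 0 rose by the edgeR quasi-likelihood test, beside 5.96% of all 14163 genes called lower and 7.19% called higher. At an unadjusted p under 0.05, 12 members were lower and 0 higher, but the share of all genes at that threshold was not computed. DESeq2 called 10 members lower and 0 higher, the 7 of edgeR and C3, F2 and Fgb. Of all 14158 genes DESeq2 called 2618, 1382 of them higher. The median log2 fold change was -0.39 over the list and 0.03 over all genes. The genes that fell were 2 of 3 fibrinogen chains, 2 of 6 terminal genes, 2 of 11 coagulation factors and 1 of 4 complement inhibitors, while 0 of the 7 recognition and early protease genes were called.

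The fibrinogen genes lie side by side on chromosome 3 (GRCm39), Fgg at 82915030 to 82922363, Fga at 82933383 to 82940934 and Fgb at 82947448 to 82957170, the last on the opposite strand. Their promoters are shown with that of C8b because C8b, Fga and Fgg had the largest falls among the called members. Fgb is the neighbour that edgeR did not call, though DESeq2 did. Each window of 300 bases runs 5′ to 3′ along the gene's own strand, from 250 bases before RefSeq's start of the gene to 50 after it. That start lies downstream of the GENCODE start printed with the genes here, by 186 bases for C8b, 77 for Fga, 1 for Fgg and 0 for Fgb. Sequences are from RefSeq's table on GRCm38.p6, and the coordinates, chr3:82933210-82933509 (plus strand), chr3:82957121-82957420 (minus strand), chr3:82914781-82915080 (plus strand) and chr4:104623264-104623563 (plus strand), are those of the single exact match of each window in GRCm39. Capitals mark matches on either strand to GTTAAT (an HNF1 motif), TTGCNNAA (C/EBP), CAAAGNNCA (HNF4) and CTGGGAA (the IL-6 response element).
Fga: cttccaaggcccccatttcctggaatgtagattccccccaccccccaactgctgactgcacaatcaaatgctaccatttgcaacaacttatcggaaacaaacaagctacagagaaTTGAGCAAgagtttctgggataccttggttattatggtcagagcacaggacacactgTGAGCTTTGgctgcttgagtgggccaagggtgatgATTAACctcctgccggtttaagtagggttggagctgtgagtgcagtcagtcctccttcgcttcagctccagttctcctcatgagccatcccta
Fgb: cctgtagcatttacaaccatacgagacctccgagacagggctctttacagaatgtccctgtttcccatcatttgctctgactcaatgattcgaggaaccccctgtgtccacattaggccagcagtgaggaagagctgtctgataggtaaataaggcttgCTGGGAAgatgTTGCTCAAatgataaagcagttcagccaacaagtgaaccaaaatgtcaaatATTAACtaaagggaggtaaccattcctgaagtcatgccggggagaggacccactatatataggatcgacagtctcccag
Fgg: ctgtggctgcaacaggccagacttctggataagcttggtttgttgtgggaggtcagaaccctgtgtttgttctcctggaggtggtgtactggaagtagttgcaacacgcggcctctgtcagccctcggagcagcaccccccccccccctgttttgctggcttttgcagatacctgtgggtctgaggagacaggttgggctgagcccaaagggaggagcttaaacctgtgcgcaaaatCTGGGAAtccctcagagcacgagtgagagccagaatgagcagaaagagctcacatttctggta
C8b: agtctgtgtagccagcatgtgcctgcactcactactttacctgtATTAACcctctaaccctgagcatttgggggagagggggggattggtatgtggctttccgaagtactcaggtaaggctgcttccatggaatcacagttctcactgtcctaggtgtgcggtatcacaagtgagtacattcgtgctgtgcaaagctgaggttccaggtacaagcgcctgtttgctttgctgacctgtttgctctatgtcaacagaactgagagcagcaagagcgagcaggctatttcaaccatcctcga

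The window of Fga held a C/EBP match at bases 116 to 123, an HNF4 match at 173 to 181 and an HNF1 motif at 208 to 213. That of Fgb held an IL-6 element at 160 to 166, a C/EBP match at 171 to 178 and an HNF1 motif at 222 to 227, that of Fgg an IL-6 element at 238 to 244, and that of C8b an HNF1 motif at 45 to 50. HNF1, HNF4 and C/EBP are transcription factors of hepatocytes. Windows were found for 32 of the 42 genes. A gene of the list counted as matched if any of its windows matched, while the background counted each window singly, so the percentages are not like measures. GTTAAT was in 31.3% of these 32 genes and in 7.10% of all 32851 windows, TTGCNNAA in 37.5% and 10.8%, CAAAGNNCA in 21.9% and 6.36%, and CTGGGAA in 25% and 11.1%. The TATA box TATAAA, read on the gene's strand only, was in 12.5% and 8.32%. These matches describe letters in a window and were not compared with the expression changes.

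Fga, the alpha chain of fibrinogen, had 536, 529, 276, 250.3 and 381 CPM in NFD and 136, 136, 108, 137 and 125 CPM in HFD. All HFD libraries lay far below all NFD libraries and close to one another. The log2 fold change was -1.58 ± 0.23 (approximate SE, n = 5 each, adjusted p by edgeR = 0.00015). Fgg, the gamma chain, had 385, 397, 327, 361 and 414 CPM in NFD and 173, 241, 181, 200.2 and 223 CPM in HFD, again without overlap, and fell by 0.84 ± 0.19 on the log2 scale (adjusted p by edgeR = 0.00534). Fgb, the beta chain, was at 709 ± 127 CPM in NFD and 501 ± 93.6 CPM in HFD (SD, n = 5 each). Its groups did not overlap either, but it was not called by edgeR, with a log2 fold change of -0.46 ± 0.21 (adjusted p by edgeR = 0.156). DESeq2 did call Fgb lower.

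C8b, the beta chain of C8 (ENSMUSG00000029656, chromosome 4, 104623328 to 104662573), had the largest fall of the list. It had 76.2, 69.6, 64.6, 22.8 and 71.9 CPM in NFD and 9.12, 18.7, 11.6, 13.7 and 11.2 CPM in HFD. NFD replicate 4 was far below the other NFD libraries but still above the highest HFD library, replicate 2. The log2 fold change was -2.20 ± 0.27 (adjusted p by edgeR = 2.9e-05). C6, which joins the pore after C5 is cleaved, had 64.2, 71.4, 48.02, 33.3 and 45.2 CPM in NFD and 32.7, 33.00, 33.1, 34.3 and 28.8 CPM in HFD, with NFD replicate 4 inside the HFD range. It fell by 0.65 ± 0.20 on the log2 scale (adjusted p by edgeR = 0.0333), while C8a, the chain encoded beside C8b on chromosome 4, had a log2 fold change of -0.30 ± 0.23 (adjusted p by edgeR = 0.41).

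F13b, the carrier subunit of the fibrin-linking factor XIII, had 13.99, 17.4, 16.8, 15.4 and 21.4 CPM in NFD and 10.00, 12.1, 10.6, 8.83 and 9.01 CPM in HFD, with no overlap. F10 had 383, 294, 259, 203 and 148 CPM in NFD, a wide spread, and 127, 189, 146, 146 and 122 CPM in HFD, where replicate 2 was above NFD replicate 5. They fell by 0.71 ± 0.19 and 0.78 ± 0.23 on the log2 scale (adjusted p by edgeR = 0.0158 and 0.0262). Serping1, the C1 inhibitor that blocks C1 proteases, kallikrein and factor XII, had 107, 133, 99.1, 65.7 and 88.8 CPM in NFD and 57.3, 85.5, 53.6, 58.4 and 50.2 CPM in HFD. HFD replicate 2 was above NFD replicate 4 and the other HFD libraries were below all of NFD, a fall of 0.65 ± 0.21 on the log2 scale (adjusted p by edgeR = 0.0383). F2, which encodes prothrombin, and C3, the central component, had values of -0.89 ± 0.31 and -0.74 ± 0.26 (adjusted p by edgeR = 0.0563 and 0.0593) and were not called. C8b, F13b and the 3 fibrinogen chains were the 5 members with every HFD library below every NFD library, against 3.66% of all genes.

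With a covariate for the mitochondrial share 9 members were called lower, the 7 named and C3 and F2. Of all 14163 genes that fit called 2010, 1084 of them higher. With the counts outside mitochondrial genes as library size and no TMM, the median of all genes was 0.33 and that of the list -0.08, with 3 members lower, C8b, Fga and Fgg, and 1 higher, Serpina10. Of all 13765 genes 2556 were then called, 2198 of them higher. The count of lower members was 11 without HFD replicate 2 and 4 without NFD replicate 1 or 2 or HFD replicate 1, 3, 4 or 5. Of all genes 1863 were called in the main fit, 2140 without HFD replicate 2 and 1108 to 1572 in the fits that gave 4. C6, F10 and Serping1 lost their calls in each of those 6 fits that gave 4, and Serping1 also without NFD replicate 3 or Uro replicate 4 or 5, at adjusted p by edgeR of 0.0503 to 0.118.

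Of the 28 other complement genes tested 8 rose and 3 fell in HFD. C1qb and C1qc, chains of C1q and known products of macrophages, rose from 13.05 ± 5.03 to 44.0 ± 14.9 CPM and from 9.65 ± 3.72 to 25.3 ± 10.7 CPM (SD, n = 5 each, adjusted p by edgeR = 0.000347 and 0.00164). Of 11 Kupffer cell and macrophage markers 5 rose and 0 fell, with a summed level of 132 to 267 CPM in NFD and 179.8 to 541 CPM in HFD and none at 0. These 11 include C1qa, C1qb and C1qc themselves. All 3 of these rose, while of the 8 other markers 2 rose and 0 fell, with a summed level of 111 to 206 CPM in NFD and 97.1 to 391 CPM in HFD. Their part in the result for C1q was not tested. Of 22 acute phase and IL-6 response genes 6 rose and 1 fell, among them Saa3, a serum amyloid A, from 1.68 ± 0.682 to 7.72 ± 2.90 CPM, and Il1r1, the interleukin-1 receptor, from 18.3 ± 6.69 to 49.4 ± 22.6 CPM (adjusted p by edgeR = 9.28e-05 and 0.00264). Of 17 transcription factors of hepatocytes 4 fell and 0 rose (edgeR quasi-likelihood test), and of 9 hepatocyte markers 2 fell and 0 rose.

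The comparison of Uro with HFD addressed UB-NPs given to mice that were already obese. It shares the HFD libraries with HFD minus NFD, where they enter with the opposite sign, so a fall there and a rise here are not independent. In Uro 28 of the 42 genes rose and 0 fell by the edgeR quasi-likelihood test. Of all 14163 genes tested 15.3% were called higher and 11.7% lower. The median log2 fold change was 1.01 over the list and -0.08 over all genes, and 36 members had a positive value. At an unadjusted p under 0.05, 31 members were higher and 1 lower, but the share of all genes at that threshold was not computed. DESeq2 called 28 members higher and 1 lower, the latter F11, beside 4484 of all 14158 genes, 2285 of them higher. In 24 members every Uro library was above every HFD library, against 13.9% of all genes. By role the genes that rose were 4 of 7 recognition and early protease genes, both genes of the C3 step, 3 of 6 terminal genes, all 4 complement inhibitors, 5 of 11 coagulation factors, all 3 fibrinogen chains, 4 of 5 anticoagulants and 3 of 4 genes of fibrinolysis.

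**Figure D3:**
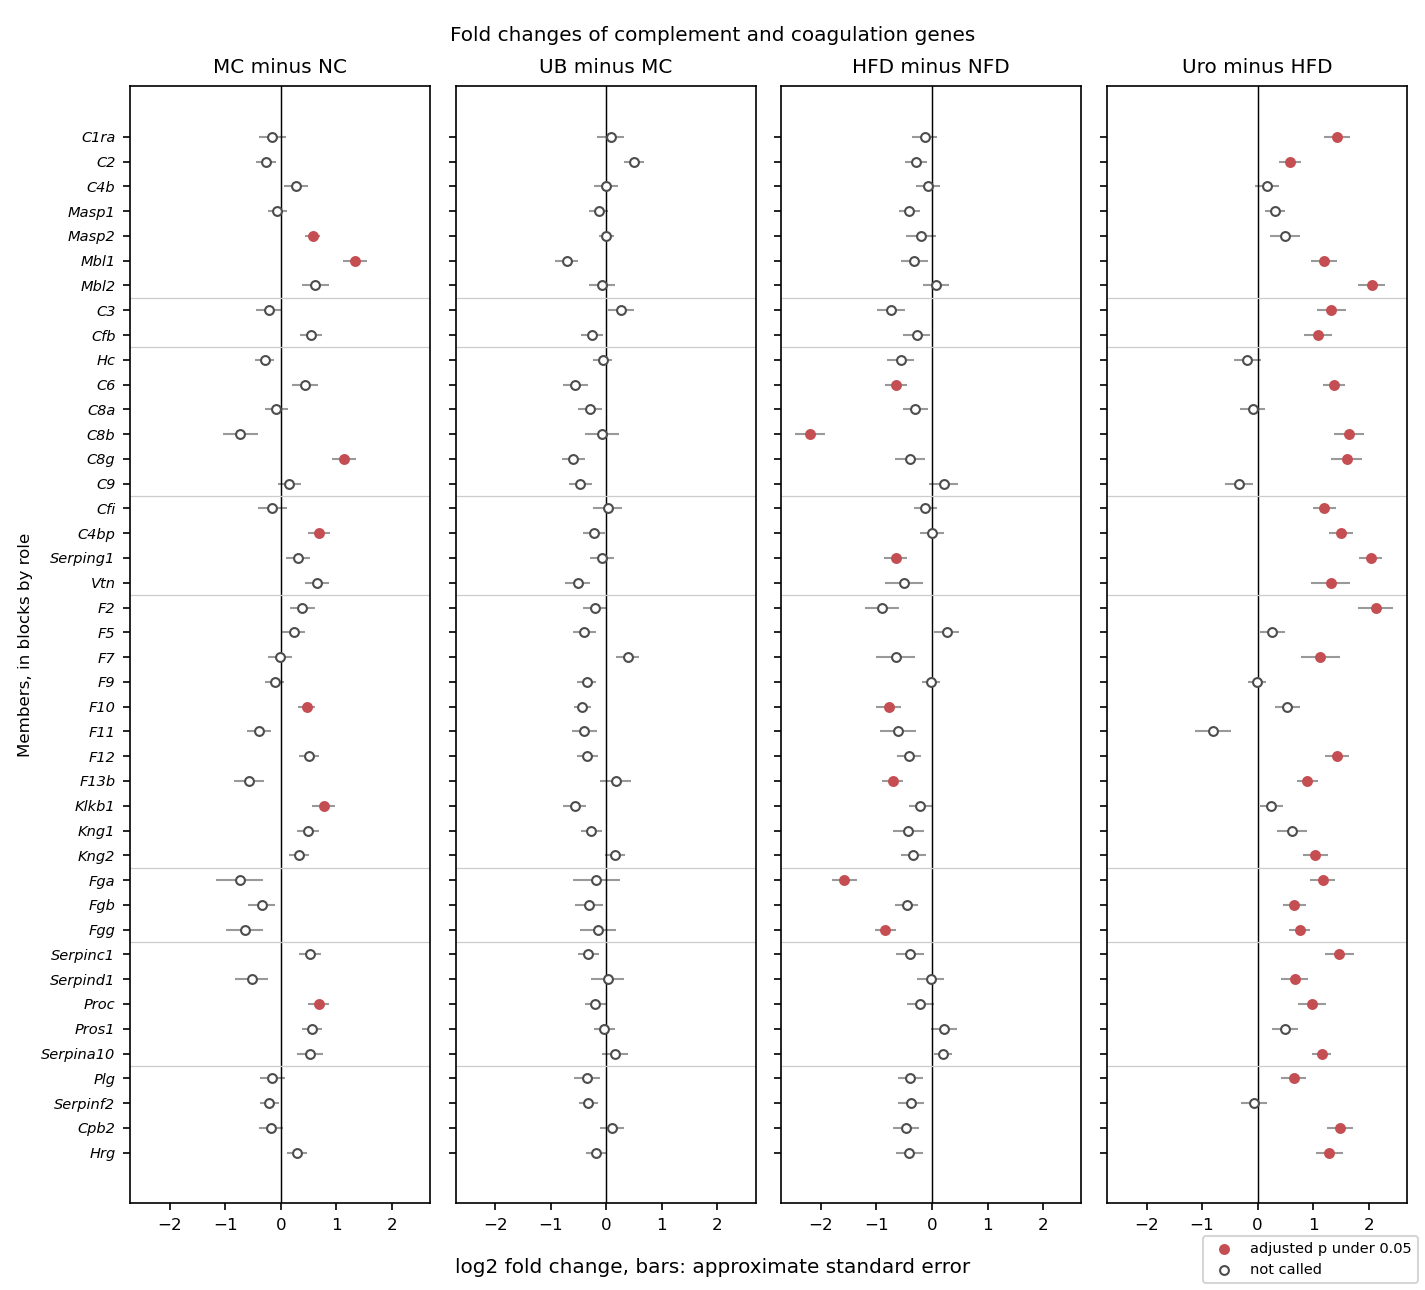
Log2 fold change of each of the 42 genes with its approximate SE in the 4 main comparisons (MC minus NC, UB minus MC, HFD minus NFD and Uro minus HFD), ordered by role, with called genes marked. In Uro minus HFD 36 of the 42 points lie to the right of 0, and in HFD minus NFD 36 lie to the left. Both comparisons use the same HFD libraries, with opposite signs, so they are not independent.

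Among the recognition genes Mbl2, mannose-binding lectin C (ENSMUSG00000024863, chromosome 19, 30210312 to 30217496), had 17.5, 38.1, 36.9, 41.1 and 38.7 CPM in HFD and 183, 104, 182, 116 and 120.1 CPM in Uro. HFD replicate 1 was the lowest of all and the lowest Uro library was far above the highest HFD library. The log2 fold change was 2.05 ± 0.24 (approximate SE, n = 5 each, adjusted p by edgeR = 3.49e-06). Mbl1 had 43.3, 89.5, 61.8, 48.9 and 48.9 CPM in HFD and 138, 155, 128, 123 and 114 CPM in Uro, also without overlap, with a log2 fold change of 1.20 ± 0.24 (adjusted p by edgeR = 0.000836). C1ra, a protease of the C1 complex, rose from 43.8 ± 14.2 to 116 ± 21.9 CPM and C2, which joins C4b in the C3 convertase, from 31.2 ± 8.80 to 46.1 ± 5.97 CPM (SD, n = 5 each, adjusted p by edgeR = 0.000117 and 0.0332). Masp1, Masp2 and C4b had log2 fold changes of 0.32, 0.49 and 0.17 and were not called. C3 went from 895 ± 271 to 2205 ± 262 CPM and Cfb, the protease subunit of the alternative convertase, from 330.1 ± 85.01 to 692 ± 104 CPM (adjusted p by edgeR = 0.000648 and 0.00256).

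In the terminal pathway C6 had the HFD values given above and 69.1, 89.8, 104, 83.1 and 67.8 CPM in Uro. The lowest Uro library was close to the highest NFD library, and the log2 fold change from HFD was 1.38 ± 0.20 (adjusted p by edgeR = 3.48e-05). C8b had 38.98, 48.4, 33.4, 47.5 and 29.6 CPM in Uro, above all HFD libraries. NFD replicate 4, at 22.8 CPM, was below all of Uro, while the other NFD libraries, at 64.6 CPM or more, were above all of Uro. C8g had 56.8, 144, 107, 104 and 107 CPM in HFD and 353, 341, 315, 263 and 278 CPM in Uro, without overlap. C8b and C8g rose by 1.64 and 1.61 on the log2 scale (adjusted p by edgeR = 0.000107 and 0.000185). Hc, which encodes C5, C8a and C9, the component that fills the pore, had values of -0.18 ± 0.24, -0.09 ± 0.22 and -0.33 ± 0.26 (adjusted p by edgeR = 0.622, 0.799 and 0.367) and were not called.

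All 4 complement inhibitors rose. Serping1 had 202, 240.3, 283, 234 and 270.1 CPM in Uro, every library well above the highest of HFD, with a log2 fold change of 2.04 ± 0.21 and the smallest adjusted p of the list (adjusted p by edgeR = 1.85e-06). C4bp had 54.9, 87.8, 79.9, 60.1 and 53.2 CPM in HFD and 187, 187, 179, 181 and 203 CPM in Uro, where the libraries were close to one another and none overlapped HFD. Its log2 fold change was 1.50 ± 0.22 (adjusted p by edgeR = 3.89e-05). Vtn, whose product vitronectin binds the forming pore, had 369, 1021, 635, 767 and 604 CPM in HFD and 1496, 1937, 2271, 1269 and 1329.7 CPM in Uro, a wide spread in both groups without overlap. It rose by 1.31 ± 0.34 on the log2 scale (adjusted p by edgeR = 0.00686), and Cfi, the protease that inactivates C3b and C4b, by 1.20 ± 0.20 (adjusted p by edgeR = 0.000162).

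The promoters of F2 and of Serpinc1, its main inhibitor, are shown because the pair had high levels and rose together. The windows are chr2:91466753-91467052 (minus strand) and chr1:160805903-160806202 (plus strand), written and marked as above, with RefSeq starts 5 and 7 bases from the GENCODE starts.
F2: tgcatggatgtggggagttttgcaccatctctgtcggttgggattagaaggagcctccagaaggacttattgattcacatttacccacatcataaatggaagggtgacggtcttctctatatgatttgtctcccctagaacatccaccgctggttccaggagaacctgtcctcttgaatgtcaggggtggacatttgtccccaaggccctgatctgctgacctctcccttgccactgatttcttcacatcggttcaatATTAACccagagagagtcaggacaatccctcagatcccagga
Serpinc1: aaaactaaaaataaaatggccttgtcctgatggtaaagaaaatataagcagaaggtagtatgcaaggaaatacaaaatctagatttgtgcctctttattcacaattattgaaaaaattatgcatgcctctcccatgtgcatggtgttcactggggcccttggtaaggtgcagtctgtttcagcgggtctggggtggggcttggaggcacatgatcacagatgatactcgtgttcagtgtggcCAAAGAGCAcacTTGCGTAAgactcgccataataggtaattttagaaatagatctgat

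The window of F2 held an HNF1 motif at bases 259 to 264, and that of Serpinc1 an HNF4 match at 243 to 251 and a C/EBP match at 255 to 262. Windows of Mbl2 and C8g were extracted as well and are not printed. That of Mbl2 had 0 matches, and those of C8g had 1, to HNF4, and 0. F2 had 85.3, 296, 115, 142 and 92.4 CPM in HFD and 699.99, 648, 583, 574 and 629.9 CPM in Uro. HFD replicate 2 was within the range of NFD, and all Uro libraries were above it. The log2 fold change was 2.13 ± 0.32, the largest of the list (adjusted p by edgeR = 4.4e-05). Serpinc1, which encodes antithrombin, had 271, 616, 361, 432 and 389.9 CPM in HFD and 1192, 1153, 1359.8, 859 and 1065 CPM in Uro, without overlap, and rose by 1.47 ± 0.26 on the log2 scale (adjusted p by edgeR = 0.000259).

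F12, the contact factor XII, had 72.5, 113, 77.9, 80.5 and 76.6 CPM in HFD and 194, 218, 296, 193 and 212 CPM in Uro. Uro replicate 3 was above the other Uro libraries, and the groups did not overlap. The log2 fold change was 1.43 ± 0.21 (adjusted p by edgeR = 4.96e-05). F13b had 21.95, 19.3, 13.8, 15.8 and 21.5 CPM in Uro, above all HFD libraries, and rose by 0.90 ± 0.18 on the log2 scale, F7, which starts clotting with tissue factor, by 1.13 ± 0.35, and Kng2, a kininogen, by 1.04 ± 0.23 (adjusted p by edgeR = 0.00102, 0.0211 and 0.00164). Kng1, the more abundant kininogen per length, had 746, 1375, 874, 1062 and 889 CPM in HFD and 1499, 1684, 1572, 1199.8 and 1519 CPM in Uro, with HFD replicate 2 inside the Uro range, and was not called at a log2 fold change of 0.62 ± 0.28 (adjusted p by edgeR = 0.0992). F5, F9, F10, F11 and Klkb1 were not called either, and F11 had the lowest value of the list, -0.81 ± 0.32 (adjusted p by edgeR = 0.0692).

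The fibrinogen chains rose together. Fga had 250.2, 236, 360.3, 279 and 299.7 CPM in Uro and Fgg 384, 271, 294, 361 and 381 CPM. Both were above all HFD libraries and within or near the range of NFD. The log2 fold changes from HFD were 1.18 for Fga, 0.76 for Fgg and 0.66 for Fgb (adjusted p by edgeR = 0.000544, 0.00464 and 0.0233).

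Among the anticoagulants Serpina10, the protein Z-dependent inhibitor of factor X, had 35.1, 38.2, 45.7, 40.8 and 35.3 CPM in HFD and 74.5, 74.8, 103, 94.00 and 80.4 CPM in Uro. The groups were narrow and far apart, with a log2 fold change of 1.15 ± 0.17 (adjusted p by edgeR = 3.69e-05). Proc had 145, 333, 196, 195 and 191 CPM in HFD and 472, 461, 411, 332 and 378 CPM in Uro, where replicate 4 was just below HFD replicate 2, and rose by 0.98 ± 0.25 (adjusted p by edgeR = 0.00545). Serpind1, the heparin cofactor, rose by 0.67 ± 0.24 (adjusted p by edgeR = 0.0457) and Pros1, the cofactor protein S, had 0.50 ± 0.23 (adjusted p by edgeR = 0.12). In fibrinolysis Cpb2, a carboxypeptidase that slows clot lysis, rose by 1.49 ± 0.23, Hrg, which binds plasminogen and heparin, by 1.29 ± 0.24 and Plg, the precursor of plasmin, by 0.65 ± 0.22 (adjusted p by edgeR = 6.58e-05, 0.000471 and 0.0354). Serpinf2, the plasmin inhibitor, had a value of -0.07 ± 0.24 (adjusted p by edgeR = 0.86).

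**Figure D4:**
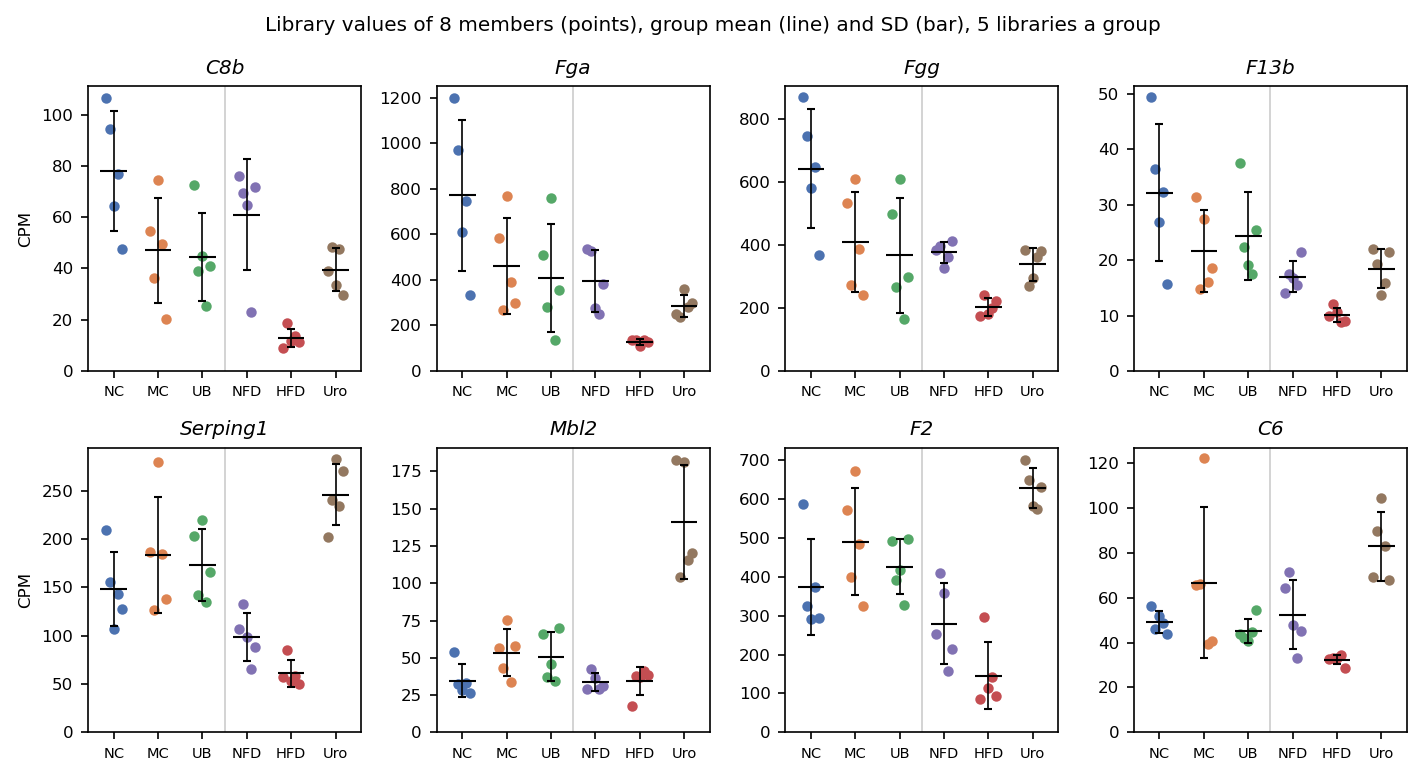
Level in CPM of C8b, Fga, Fgg, F13b, Serping1, Mbl2, F2 and C6 in each library of the 6 groups, 1 point per library with the group mean and SD. In all 8 genes the 5 HFD libraries lie below the 5 Uro libraries, and in C8b, Fga, Fgg and F13b also below the 5 NFD libraries.

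With the counts outside mitochondrial genes as library size and no TMM, an alternative added after seeing the data, 18 members were called higher and 6 lower. Of all 13765 genes 6403 were called, 793 of them higher. The median was 0.42 over the list and -0.68 over all genes. The 6 lower were C8a, C9, F9, F11, Hc and Serpinf2, and the 10 that lost their call were C2, whose sign turned, and Cfb, F7, F13b, Fgb, Fgg, Kng2, Plg, Proc and Serpind1. With a covariate for the mitochondrial share 0 members and 2 of all 14163 genes were called, in a fit where that share separates the groups. Single libraries ended 5 calls, at adjusted p by edgeR of 0.05 to 0.116. C2 and Plg lost theirs without HFD replicate 1, 3, 4 or 5 or Uro replicate 1 or 3, C2 also without Uro replicate 4 and Plg without Uro replicate 5. Serpind1 lost its call without NFD replicate 1, 2 or 3, HFD replicate 1, 2, 4 or 5 or Uro replicate 1, 3, 4 or 5, F7 without HFD replicate 1 or 5 or Uro replicate 2, and Fgb without HFD replicate 1 or Uro replicate 5. F11 was called lower without NFD replicate 4 or 5, HFD replicate 5 or Uro replicate 1.

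Related genes outside the list were examined as well. Of 28 other complement genes 8 rose and 0 fell, among them Clu, clusterin, which binds the forming pore, from 199 ± 23.3 to 805 ± 206 CPM (SD, n = 5 each, adjusted p by edgeR = 9.34e-06). Of 8 genes of the vitamin K cycle and of factor secretion 4 rose and 0 fell, among them Vkorc1, the reductase that renews vitamin K, from 28.4 ± 4.32 to 71.0 ± 9.53 CPM (adjusted p by edgeR = 6.76e-05). Of 24 other coagulation and fibrinolysis genes 3 rose and 0 fell, with Pzp, a protease inhibitor of the alpha-2-macroglobulin family, going from 280.2 ± 47.5 to 679 ± 27.7 CPM (adjusted p by edgeR = 7.95e-05). Of 22 acute phase genes 11 rose and 2 fell, and Apcs, serum amyloid P, went from 11.1 ± 1.58 to 40.1 ± 5.10 CPM (adjusted p by edgeR = 8.15e-06). Of 9 hepatocyte markers 6 rose and 0 fell, and their summed level was 14203 to 27586 CPM in HFD and 32861 to 52397 CPM in Uro. The part of hepatocyte RNA in the results for the list was not tested.

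Against NFD, which differs from Uro in diet and in obesity, 18 members were higher and 2 lower in Uro by the edgeR quasi-likelihood test, beside 16.1% and 12.3% of all genes. The members' median was 0.56 and that of all genes 0.03. Mbl2, Serpina10, C4bp and Serping1 were called above NFD too, at log2 fold changes of 2.13, 1.35, 1.51 and 1.38 (adjusted p by edgeR = 2.46e-06, 7.7e-06, 3.77e-05 and 4.81e-05). The fibrinogen chains had -0.40 ± 0.22 for Fga, 0.21 ± 0.21 for Fgb and -0.09 ± 0.19 for Fgg (adjusted p by edgeR = 0.19, 0.503 and 0.769) and C8b had -0.56 ± 0.26 (adjusted p by edgeR = 0.115). F11 fell by 1.43 ± 0.33, from 17.5 ± 8.14 to 6.25 ± 2.26 CPM, and Hc by 0.75 ± 0.24, from 292 ± 75.6 to 166 ± 27.7 CPM (SD, n = 5 each, adjusted p by edgeR = 0.00257 and 0.026). The call of Hc ended without NFD replicate 1 or 4 or Uro replicate 3, 4 or 5, that of Pros1 without NFD replicate 4 or 5 or Uro replicate 1, 4 or 5 and that of Proc without Uro replicate 1 (adjusted p by edgeR of 0.0526 to 0.0791). With the counts outside mitochondrial genes as library size 13 members were higher and 7 lower. Of all 13765 genes 4495 were called in that fit, 1381 of them higher. C6, Cfb, Kng2, Proc and Pros1 were then no longer called, and C8a, C8b, F10, Fga and Serpinf2 were called lower. Uro minus HFD and Uro minus NFD share the Uro libraries, and HFD minus NFD and Uro minus NFD share the NFD libraries. The comparisons within a study are thus not independent of one another.

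Whether the diet difference was the same in both studies was tested as an interaction in 1 fit of all 30 libraries. For 9 members the difference HFD minus NFD was lower than MC minus NC, and for 0 it was higher (edgeR quasi-likelihood, Benjamini-Hochberg), beside 3.42% and 2% of all 14784 genes. Without adjustment these counts were 18 and 0 at a p under 0.05, a threshold at which the share of all genes was not computed. DESeq2 gave 13 and 0, beside 1152 of all 14783 genes, 492 of them higher. The studies also differ in duration and in all that a separate experiment brings, and these cannot be told apart. Mbl1 had 98.6, 102, 78.4, 49.7 and 46.2 CPM in NFD, a wide range that covered most of HFD, and its difference of differences was -1.69 ± 0.33 (adjusted p by edgeR = 0.00357). For F10 it was -1.29 ± 0.26 and for C8g -1.59 ± 0.36 (adjusted p by edgeR = 0.0045 and 0.00821), with C8g at 208, 178, 160.1, 91.3 and 69.4 CPM in NFD. For C6 it was -1.13 ± 0.31, for C8b -1.52 ± 0.43 and for Klkb1 -1.02 ± 0.30 (adjusted p by edgeR = 0.0268, 0.0346 and 0.0353). Klkb1 had 251, 255, 248, 273 and 136 CPM in NFD, where replicate 5 stood below the others, and 169, 227, 228, 162 and 191 CPM in HFD.

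F12, F2 and Serping1 were the other 3, at -0.96, -1.32 and -0.9995 (adjusted p by edgeR = 0.0357, 0.0381 and 0.0451). Of 9 hepatocyte markers 2 were called lower and 0 higher in this interaction, and their part in the result was not tested. The fibrinogen chains were not among the called members, and Fga, with 1196, 971, 611, 746 and 333 CPM in NC and 583, 268, 769, 391 and 300.2 CPM in MC, overlapped widely between those groups. The count of lower members was 3 without MC replicate 3, NFD replicate 1, NFD replicate 2 or HFD replicate 5, and 4 without NC replicate 3, NFD replicate 3, HFD replicate 1 or HFD replicate 4. It was 5 without NC replicate 2, NC replicate 4 or HFD replicate 3, 16 without NFD replicate 5 and 17 without HFD replicate 2. Of all genes the main fit called 801, with 1383 without NFD replicate 5 and 1220 without HFD replicate 2. In the other fits just named 495 to 677 were called. With a covariate for the mitochondrial share the count of lower members was 2, Mbl1 and F10, beside 186 of all 14784 genes called, 87 of them higher. With the counts outside mitochondrial genes as library size it was 3, Mbl1, F10 and C8g, where the median of all genes was 0.44. Of all 14747 genes 1357 were then called, 1233 of them higher.

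Whether the difference between UB-NPs and water was the same in both studies was tested as an interaction too. The studies differ in prior obesity, in weeks of UB-NPs and in all that a separate experiment brings, which cannot be told apart. Both interactions use the MC and HFD libraries, with opposite signs. For 23 members the difference Uro minus HFD was higher than UB minus MC and for 0 lower (edgeR quasi-likelihood, Benjamini-Hochberg), beside 8.54% and 3.75% of all 14784 genes. At an unadjusted p under 0.05 the counts were 29 and 0, but the share of all genes at that threshold was not computed. DESeq2 gave 26 and 0, beside 2210 of all 14783 genes, 1433 of them higher. Serping1 had 187, 127, 279.5, 185 and 138 CPM in MC and 203, 142, 219.6, 134 and 166 CPM in UB, groups that overlapped almost wholly, and its difference of differences was 2.09 ± 0.31 (adjusted p by edgeR = 3.13e-05). F12 had 157, 125, 218, 138 and 140.1 CPM in MC and 106, 108, 118, 129 and 154 CPM in UB, and F2 had 572, 399.8, 671, 484 and 325 CPM in MC and 491, 392, 418, 329 and 498 CPM in UB. Both overlapped between the groups, with differences of differences of 1.74 ± 0.28 and 2.31 ± 0.39 (adjusted p by edgeR = 7.63e-05 and 0.000126).

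Mbl2 had 56.9, 43.5, 75.6, 33.5 and 57.9 CPM in MC and 66.2, 37.4, 45.9, 34.5 and 69.9 CPM in UB, and C6 65.6, 66.03, 122, 39.2 and 40.5 CPM in MC and 43.9, 42.2, 40.6, 44.8 and 54.4 CPM in UB, where MC replicate 3 stood above the rest. C8g had 104, 112, 105, 144 and 175 CPM in UB. The differences of differences were 2.10 ± 0.34, 1.92 ± 0.31 and 2.17 ± 0.36 (adjusted p by edgeR = 8.68e-05, 8.39e-05 and 9.26e-05). Of 9 hepatocyte markers 6 were called higher and 0 lower in the same interaction, with a median of 1.44 beside 0.96 over the 42 genes, and their part in the result was not tested. The mitochondrial share lay between 38.6 and 69.1% in MC and 41.8 and 52.0% in UB, which overlap, while those of HFD and Uro do not. With that share as a covariate 0 members and 0 of all 14784 genes were called in this interaction. With the counts outside mitochondrial genes as library size 11 members were higher and 3 lower, where the median of all genes was -0.86. Of all 14747 genes 4561 were then called, 303 of them higher.

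Leaving out single libraries ended the call of 5 members in this interaction, at adjusted p by edgeR of 0.05 to 0.129. Serpina10 lost its call without MC replicate 3, UB replicate 2 or Uro replicate 3, and Plg, C3, Fgb and Kng2 lost theirs in those fits as well. Plg, C3, Fgb and Kng2 also lost their calls without MC replicate 1, UB replicate 4, HFD replicate 1 or 3 or Uro replicate 1. Further losses were those of Plg without HFD replicate 4 or 5 or Uro replicate 5, and of C3 without NC replicate 4, MC replicate 4, HFD replicate 5 or Uro replicate 2. Fgb lost its call as well without NC replicate 2 or 4, MC replicate 4, UB replicate 5, NFD replicate 2 or 3, HFD replicate 4 or Uro replicate 4 or 5. For Kng2 the other libraries were NC replicate 4, MC replicates 2 and 4, UB replicates 3 and 5, NFD replicate 2, HFD replicates 4 and 5 and Uro replicates 2 and 5.

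Genes whose products form one complex were also compared within libraries, per transcript length. These ratios were chosen after the values were seen and are given without a test, from TPM values of the same library. The ratio of Fga to Fgb had a median of 1.65 in NC, 1.23 in MC, 1.37 in UB and 1.15 in NFD, but of 0.466 in HFD, where it ran from 0.396 to 0.713, and of 0.653 in Uro, where it ran from 0.61 to 0.885. The lowest NFD library was at 0.756, above all of HFD. The ratio of C8b to C8a had a median of 0.201 in NFD, 0.0742 in HFD and 0.218 in Uro, and no HFD library, at 0.079 or less, reached the lowest NFD library at 0.0869. The ratio of C8g to C8a had a median of 1.14 in HFD and 3.52 in Uro, with 2.23 as the lowest Uro library and 1.19 as the highest HFD library. The ratio of Fgg to Fgb had medians of 1.33 in NFD, 0.989 in HFD and 1.08 in Uro.

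**Figure D5:**
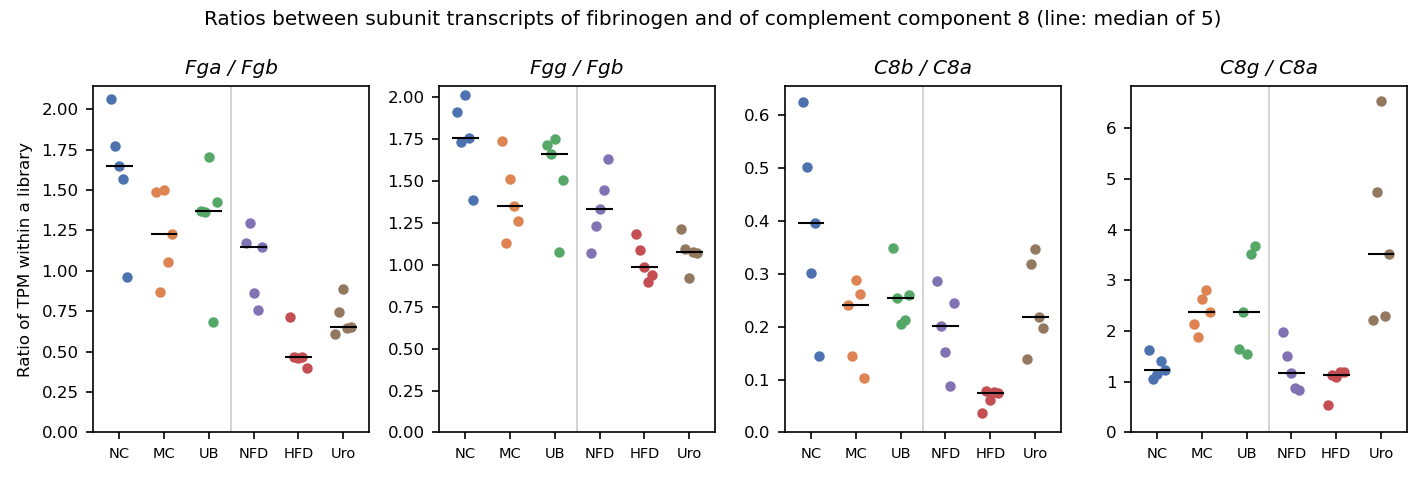
Ratio of TPM values within each library for Fga to Fgb, Fgg to Fgb, C8b to C8a and C8g to C8a, 1 point per library for the 6 groups, with the group median. HFD libraries have the lowest ratios of Fga to Fgb, with a median of 0.466, and of C8b to C8a, with a median of 0.0742.

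Transcript length and GC content were set beside the changes in Uro minus HFD. Across the 42 genes Spearman's rho between the log2 fold change and log2 transcript length was -0.41, and across all 14163 genes tested it was -0.27. With the GC content of the transcript it was 0.17 in both. These are correlations across genes of the same libraries, which are not independent replicates, and they are given as a description.

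The authors' deposited table of calls, whose thresholds are not stated in the sources used here, marked fewer members. It called 2 higher in MC against NC, Mbl1 and C8g, and 0 in UB against MC. In HFD against NFD the authors' deposited table called C8b and Fga lower, and 21 were higher and 0 lower in Uro against HFD. Against NFD the authors' deposited table called 9 higher and 1 lower, F11, in Uro, and against NC it called 0 in UB. Of all genes it called 851 in MC against NC, 128 in UB against MC and 1274 in HFD against NFD. It called 2852 in Uro against HFD, 2898 in Uro against NFD and 678 in UB against NC.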

How the data were processed

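RNA was sequenced from 30 liver libraries, 5 in each of 6 groups, as poly(A)-selected stranded libraries per the labels' protocols. The submitters' processing notes name the tools fastp, HISAT2, StringTie and DESeq2, without versions, and the genome build GRCm39. The deposited gene table holds the authors' expected counts, whose totals differ between libraries, and the deposited TPM table holds the authors' length-scaled abundances. The deposited table of the authors' calls gives a yes or no and a direction per comparison. How reads of paralogs and overlapping genes were counted is not given in the sources used here.

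Expected counts were rounded to whole numbers. In R 4.3.3, edgeR 4.0.16 (with limma 3.58.1) fitted each study of 15 libraries by robust quasi-likelihood after filterByExpr and TMM scaling, and all 30 libraries for the interactions. The Benjamini-Hochberg adjustment ran over every gene tested, and calls needed an adjusted p under 0.05. The approximate SE is the absolute log2 fold change over the square root of F. CPM used TMM-scaled library sizes from 1 normalization of all 30 libraries. Alternatives were DESeq2 1.42.0, its size factors, no low-count filter, mitochondrial genes removed, a covariate for the mitochondrial share, 1 fit of all libraries, a replicate block and leaving out each library. The mitochondrial share sums 37 mitochondrial genes and 7 nuclear copies on chromosome 1. Tables and figures used Python 3.11.15, NumPy 2.4.6, pandas 2.3.3 and matplotlib 3.10.9. The fits were tested on simulated data. Of 60 pairs of libraries within groups 0 were identical. Gene positions are from GENCODE release M39 (GRCm39), and promoter windows from RefSeq.

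The members and lists were chosen with earlier results of these data known. Library values are given for 20 members: those with the 6 smallest adjusted p among the calls of each main comparison or interaction, the 2 with the smallest adjusted p where fewer than 2 were called, and the 3 with the highest TPM. The limit to 6 in an interaction was set after the counts were seen. F10 in MC and Serping1 in HFD, called in seventh place, are also given. The 4 related genes with the smallest adjusted p in a comparison were named, except Prox1, given with the other observations. Of 10 hepatocyte markers 9 were in the table under the symbol listed. No interval is given for levels, whose error is the spread between libraries.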

Additional observations from a re-analysis of the deposited data

Results flagged for a closer look

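Over 120 groups of 5 libraries (20 genes in 6 groups) a single library stood apart from the other 4 in 9, by the gap to its nearest neighbour over the range of the log2 CPM. Chance flags about 1 in 20 groups. In the standard-diet group of the treatment study NFD replicate 5 was the lowest for F12 (66.1 CPM), Klkb1 (136 CPM) and Masp2 (42.1 CPM), and NFD replicate 4 was the lowest for C8b (22.8 CPM). In HFD, replicate 2 was the highest for F12 (113 CPM) and Serping1 (85.5 CPM), replicate 1 the lowest for Mbl2 (17.5 CPM) and replicate 5 the lowest for C6 (28.8 CPM). In Uro, replicate 3 was the highest for F12 (296 CPM). Mitochondrial shares were 81.0% in NFD replicate 5, 73.9% in NFD replicate 4, 82.3% in HFD replicate 1, 61.3% in HFD replicate 2 and 14.1% in Uro replicate 3, and their part in these values was not tested.

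By the interaction test of edgeR, the difference between the diets was called as differing between the studies in 9 members. Duration and study cannot be told apart here. The difference of log2 fold changes, (HFD minus NFD) minus (MC minus NC), was -1.69 for Mbl1, -1.29 for F10, -1.59 for C8g, -1.13 for C6 and -1.52 for C8b. It was -1.02 for Klkb1, -0.96 for F12, -1.32 for F2 and -0.9995 for Serping1. With a covariate for the mitochondrial share only Mbl1 and F10 kept their call. With the counts outside mitochondrial genes as library size only Mbl1, F10 and C8g did. Without NC replicate 3, C8b, F12, F2, Klkb1 and Serping1 lost their calls, and the counts without other libraries are given with the interaction.

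By the same test, the difference between UB-NPs and water was called as differing between the studies in 23 members. Prior obesity, weeks of UB-NPs and study cannot be told apart here. The difference of log2 fold changes, (Uro minus HFD) minus (UB minus MC), was 2.09 for Serping1, 1.71 for C4bp, 1.81 for Vtn and 1.16 for Cfi among the complement inhibitors. Among the other complement genes it was 2.10 for Mbl2, 1.88 for Mbl1, 1.33 for C1ra, 1.33 for Cfb, 1.03 for C3, 2.17 for C8g, 1.92 for C6 and 1.70 for C8b. Among the clotting factors and fibrinogen chains it was 2.31 for F2, 1.74 for F12, 0.95 for F10, 0.86 for Kng2 and 0.95 for Fgb. For the anticoagulants and fibrinolysis it was 1.77 for Serpinc1, 1.15 for Proc, 0.97 for Serpina10, 1.45 for Hrg, 1.36 for Cpb2 and 0.97 for Plg. In the same interaction 6 of 9 hepatocyte markers were called higher and 0 lower, and their part in these differences was not tested. Single left-out libraries ended the calls of Kng2, Fgb, C3, Plg and Serpina10, as listed with the interaction. With a covariate for the mitochondrial share 0 of the 23 kept their call. With the counts outside mitochondrial genes as library size C1ra, C3, C8b, Cfb, Cfi, Cpb2, F10, Fgb, Kng2, Plg, Proc and Serpina10 lost theirs.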

How the results depend on the processing

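Counts of called members changed with the mitochondrial share and with library scaling, among other settings, and the cause was not tested. With that share as a covariate the count of higher members was 0 in MC minus NC, Uro minus HFD, UB minus NC, Uro minus NFD and the UB-NPs interaction. The count of lower members was 0 in UB minus NC and Uro minus NFD, 1 in UB minus MC and 2 in the diet interaction. Of all genes the covariate fit called 389 in MC minus NC, 56 in UB minus MC, 71 in UB minus NC and 2 in Uro minus HFD. It called 0 of all genes in Uro minus NFD, 186 in the diet interaction and 0 in the UB-NPs interaction. In that fit called members of Uro minus HFD changed sign: C8g to -0.33, Serpinc1 to -0.20, Mbl1 to -0.21, Cfb to -0.46, Proc to -0.17, Vtn to -0.99, F7 to -0.45, Plg to -0.66 and Serpind1 to -1.37 (log2). So did members of Uro minus NFD: Cfi to -0.13, F12 to -0.055, C8g to -0.83, Serpinc1 to -0.65, F2 to -0.66, Mbl1 to -0.58, Hrg to -0.29, Cfb to -0.80, Kng2 to -0.017, Proc to -0.44 and Pros1 to -0.92. With the counts outside mitochondrial genes as library size, an alternative chosen after seeing the data, higher and lower counts were 2 and 1 in MC minus NC, 1 and 3 in HFD minus NFD and 18 and 6 in Uro minus HFD, where C2 changed sign to -0.0028. Lower counts were then 0 in UB minus NC, 7 in Uro minus NFD, beside 13 higher, and 3 in the diet interaction, and the UB-NPs interaction had 11 higher and 3 lower. In UB minus NC that setting called 811 of all 13540 genes. Without the library of highest mitochondrial share in each group, also chosen after seeing the data, MC minus NC had 13 higher, UB minus NC 3 lower and the diet interaction 16 lower. Of all genes 1213, 1074 and 1227 were called there. DESeq2 gave 13 higher in MC minus NC, 1 lower in Uro minus HFD and 3 lower in UB minus NC, where it called 1470 of all 13491 genes. UB minus NC had 3 higher without the low-count filter, and in 1 fit of all 30 libraries it had 0 lower and Serpina10 in place of Masp2 as the higher member, while Uro minus HFD had 1 lower.

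Without 1 library at a time the higher and lower counts ran over 3 to 12 and 0 to 1 in MC minus NC, 0 to 0 and 0 to 1 in UB minus MC, 0 to 0 and 4 to 11 in HFD minus NFD, 23 to 30 and 0 to 1 in Uro minus HFD, 1 to 6 and 0 to 4 in UB minus NC, and 16 to 21 and 1 to 2 in Uro minus NFD. They ran over 0 to 0 and 3 to 17 in the diet interaction and 18 to 26 and 0 to 0 in the UB-NPs interaction. Of all genes the fits called 923 to 2315 in MC minus NC and 20 to 109 in UB minus MC. In HFD minus NFD they called 1108 to 2341 and in Uro minus HFD 3023 to 4537. In UB minus NC they called 550 to 1589 and in Uro minus NFD 3216 to 4222. In the diet interaction they called 495 to 1383 and in the UB-NPs interaction 1404 to 2182.

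Replicate numbers shared between groups were used as a replicate block in another fit. It gave 10 higher in MC minus NC, 5 lower in UB minus NC, 6 lower in HFD minus NFD, 27 higher in Uro minus HFD, 7 lower in the diet interaction and 24 higher in the UB-NPs interaction. Of all genes it called 1907, 1246, 1411, 3366, 714 and 1725 in the same order. Pairs of libraries with the same number had a median correlation of deviations of 0.021 in the prevention study, where 1 of 15 pairs was over 0.1, and of -0.011 in the treatment study, with 2 of 15. For pairs with different numbers the medians were -0.0076, with 1 of 60 over 0.1, and 0.00084, with 7 of 60. No pairing by number was seen on this measure, which cannot exclude it. Depth limits the low genes most: the library with the fewest counts outside mitochondrial genes had 3.14 M.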

Other observations

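Prox1, a transcription factor of hepatocytes and lymphatic endothelium, went from 40.5 ± 7.52 CPM in NC to 22.8 ± 4.78 CPM in MC (SD, n = 5 each, edgeR quasi-likelihood, Benjamini-Hochberg adjusted p = 0.00471). It was the 1 called gene of 17 hepatocyte transcription factors tested in MC minus NC.

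Within the standard-diet group of the treatment study the libraries differed widely. Vtn had 1567, 1379.8, 1113, 511 and 400.1 CPM in the NFD libraries, Kng1 2034, 1481, 1597, 1127 and 599 CPM, and Serpinc1 635, 719.9, 656, 487 and 306 CPM, with replicate 5 the lowest for all 3 genes. The mitochondrial share of NFD replicate 5 was 81.0%, the highest of its group. In HFD the highest library for Vtn, Kng1 and Serpinc1 was replicate 2, at 1021, 1375 and 616 CPM, and replicate 1, whose mitochondrial share of 82.3% was the highest of that group, was the lowest, at 369, 746 and 271 CPM. In Uro the mitochondrial shares were 14.1 to 21.6%, and Vtn was at 1269 to 2271 CPM.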
